A study of Mus musculus with 8 samples.

Results

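Foxp3, Il2ra, Ctla4 and Ikzf2 are transcripts by which regulatory T cells are recognised, and they are 4 of the 100 genes on a panel that was imaged molecule by molecule in mouse brain carrying glioma. Their molecules were taken by target name in every one of the 8 sections. All mice had been implanted with GL261, a mouse glioma cell line, were treated into the brain, and were killed on day 21. The combination of CpG-STAT3ASO with anti-PD1, CpG-STAT3ASO alone, anti-PD1 alone and the PBS control had 2 sections each. CpG-STAT3ASO joins a CpG oligonucleotide, the kind of DNA that TLR9 senses, to an antisense oligonucleotide against Stat3, and anti-PD1 blocks the checkpoint receptor PD-1. The labels give no strain, no age and no count of animals, so a p value here reflects the spread from section to section, which may be technical.

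Regulatory T cells are CD4 T cells that hold other immune cells in check. The transcription factor FOXP3 defines the lineage. Il2ra encodes CD25, the alpha chain of the IL-2 receptor, with which these cells take up IL-2 that effector T cells need. Ctla4 encodes an inhibitory receptor that binds CD80 and CD86 on antigen-presenting cells and so withholds them from CD28. Ikzf2 encodes Helios, a zinc finger factor carried by many regulatory T cells. Only Foxp3 is close to specific for the lineage in mice, since Il2ra and Ctla4 are also switched on in other activated T cells, and Ikzf2 is also transcribed outside the T cell lineage.

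The windows around the transcription starts of 3 of the 4 genes are shown because these genes are known targets of T cell receptor signalling through NFAT, and the molecules of these genes lay together in the tissue. The sequences are RefSeq's on GRCm38.p6, plus strand, from 250 bases before to 50 after the start, read 5′ to 3′. Capitals mark the letters of an NFAT core (GGAAA), a forkhead core (TAAACA) or a TATA box (TATAAA) on either strand, so that TTTCC is GGAAA on the minus strand.
Foxp3 (first of its 2 starts, chrX:7579426-7579725): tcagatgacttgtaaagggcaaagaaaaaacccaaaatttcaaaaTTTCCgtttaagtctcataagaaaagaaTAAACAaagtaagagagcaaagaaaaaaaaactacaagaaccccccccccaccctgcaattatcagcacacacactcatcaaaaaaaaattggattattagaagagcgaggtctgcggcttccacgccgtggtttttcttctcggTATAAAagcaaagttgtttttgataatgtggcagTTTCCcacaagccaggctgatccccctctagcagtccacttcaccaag
Il2ra (chr2:11642542-11642841): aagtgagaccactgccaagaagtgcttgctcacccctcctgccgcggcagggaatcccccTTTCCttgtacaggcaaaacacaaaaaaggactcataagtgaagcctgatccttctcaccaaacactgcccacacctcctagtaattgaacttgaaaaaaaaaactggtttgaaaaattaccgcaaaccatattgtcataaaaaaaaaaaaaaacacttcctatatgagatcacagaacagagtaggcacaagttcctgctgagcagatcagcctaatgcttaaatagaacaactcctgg
Ctla4 (chr1:60908775-60909074): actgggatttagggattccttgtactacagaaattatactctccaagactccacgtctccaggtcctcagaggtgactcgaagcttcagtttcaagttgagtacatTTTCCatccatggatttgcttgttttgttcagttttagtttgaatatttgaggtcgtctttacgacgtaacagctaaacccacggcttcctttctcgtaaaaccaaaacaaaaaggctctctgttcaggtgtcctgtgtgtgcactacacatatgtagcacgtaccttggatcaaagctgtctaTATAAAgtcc
All 3 windows held the NFAT core, which was found in 61.3% of 32851 windows of this length. It began at -205 and at 3 in Foxp3, at -190 in Il2ra and at -144 in Ctla4, counted from 1 at the start. The forkhead core (13.4% of windows) stood at -177 in Foxp3. The TATA box (13.6% of windows) stood at -32 in Foxp3 and at 41 in Ctla4. A further search, for the STAT-binding element TTCNNNGAA (8.3% of windows), matched only in the window of the other Foxp3 start. These matches are letters and not shown sites. Ikzf2, on chromosome 1, is named only.

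A section held 1669939 to 6995401 molecules. Sections given CpG-STAT3ASO, alone or in the combination, held fewer than the other sections, 1669939 to 3927955 against 4195896 to 6995401. Molecules carrying one of 28 codes named as false positives made up 0.106 to 0.306% of a section. All 4 genes passed the 90th percentile of these codes in all 8 sections, Foxp3 by 1.5 to 6.2 times. The T cell marker Cd3d passed it in all 4 sections with CpG-STAT3ASO and in 1 of 4 without, so Cd3d was at the false-positive level in 3 sections. Of 9 T cell markers listed, Cd3d, Cd8a and Cd4 were on the panel.

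Foxp3 was sparse in every section. It had 453 and 520 molecules with the combination, 230 and 881 with CpG-STAT3ASO, 1481 and 696 with anti-PD1, and 799 and 780 with PBS. As molecules per 1e6 gene molecules of the section (CPM), these were 272 and 133 with the combination, 138 and 363 with CpG-STAT3ASO, 223 and 109 with anti-PD1, and 191 and 112 with PBS. CpG-STAT3ASO section 2 was highest and anti-PD1 section 2 lowest by CPM, and the span within CpG-STAT3ASO was wider than that of the 4 group means, 151 to 251 CPM. Foxp3 averaged 226 ± 112 CPM in the sections with CpG-STAT3ASO and 159 ± 57.1 CPM in those without (SD, n = 4 each), and the ranges overlapped.

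Il2ra was measured at 647 and 437 CPM with the combination, 490 and 1193 CPM with CpG-STAT3ASO, 1167 and 426 CPM with anti-PD1, and 621 and 410 CPM with PBS. CpG-STAT3ASO section 2 and anti-PD1 section 1 stood well above the other 6, and the same 2 sections had the most Foxp3 molecules. Ctla4 had 660 and 386 CPM with the combination, 273 and 740 CPM with CpG-STAT3ASO, 421 and 122 CPM with anti-PD1, and 406 and 294 CPM with PBS. Anti-PD1 section 2 was lowest for Ctla4, and the groups with and without CpG-STAT3ASO overlapped.

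Ikzf2 differed from the other 3 genes in its spread over the tissue. It had 4667 and 3354 CPM with the combination, 4868 and 3675 CPM with CpG-STAT3ASO, 1687 and 1836 CPM with anti-PD1, and 2752 and 1520 CPM with PBS. All 4 sections with CpG-STAT3ASO lay above all 4 others, 4141 ± 740 against 1949 ± 551 CPM (SD, n = 4 each). Tissue was divided into squares of 360 pixels, here called bins, and Ikzf2 was present in 85.6 to 92.7% of the tissue bins of a section. Foxp3 was present in 4.14 to 20.5%, Il2ra in 11.5 to 36.2% and Ctla4 in 12.3 to 31.3%, where the median panel gene was present in 34.7 to 54.2%. The bins with the most Foxp3, 1% of the tissue bins, held 23.9 to 62.9% of its molecules, against 4.53 to 7.04% for Ikzf2.

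**Figure D1:**
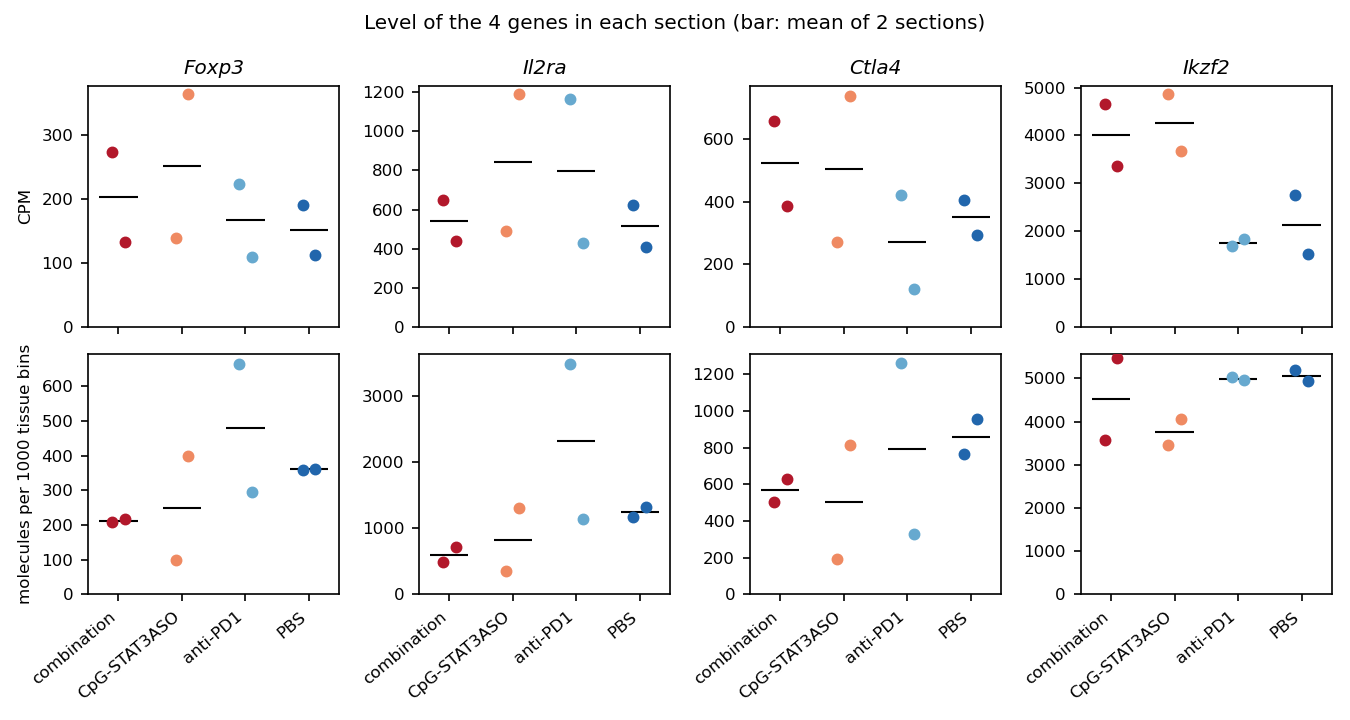
Molecules of Foxp3, Il2ra, Ctla4 and Ikzf2 in each of the 8 sections, per 1e6 gene molecules (CPM) and per 1000 tissue bins, with 1 point per section. The sections with CpG-STAT3ASO and those without separate for Ikzf2 by CPM and overlap for Foxp3, Il2ra and Ctla4.

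The first question was whether either agent changed these levels. Of the 4 genes, Ikzf2 rose with CpG-STAT3ASO averaged over anti-PD1 (log2 change 1.11, SE 0.343, limma adjusted p = 0.0154). This was 1 gene of 4, where 43% of the 100 genes were called and 35% were called higher. The median of all genes stood at 0.63 by this scaling. Per tissue bin the Ikzf2 change was -0.30 and by median-of-ratios size factors it was 0.43, neither past the threshold, and the call was also lost without CpG-STAT3ASO section 1 (1.01, adjusted p = 0.0838) and without PBS section 2 (0.89, adjusted p = 0.104). In counts of molecules over whole sections, a change in the number of cells of a type and a change in RNA per cell cannot be told apart.

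Foxp3 (log2 0.45, SE 0.561, limma adjusted p = 0.568), Il2ra (0.10, SE 0.491, adjusted p = 0.918) and Ctla4 (0.76, SE 0.549, adjusted p = 0.286) did not pass by share of molecules. Per tissue bin the same differences were -0.96, -1.32 and -0.65, also short of the threshold. Foxp3 then had 208 and 216 molecules per 1000 tissue bins with the combination, 98.3 and 400.1 with CpG-STAT3ASO, 666 and 295 with anti-PD1, and 359.9 and 362 with PBS. By this measure 3 of the 4 sections with CpG-STAT3ASO lay below all 4 sections without it, and CpG-STAT3ASO section 2 lay above 3 of them. The direction of the CpG-STAT3ASO difference in Foxp3, Il2ra and Ctla4 thus turned with the scaling.

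None of the 4 genes was called for anti-PD1 averaged over CpG-STAT3ASO, where 0% of the 100 genes were called by limma and 1 gene had an unadjusted p under 0.05. The log2 differences ran from -0.22 for Ctla4 to -0.02 for Il2ra. None was called for the interaction of the agents, again with 0% of genes called and 3 genes at an unadjusted p under 0.05. Between single treatments, none of the 4 was called with the combination against PBS (18% of genes called), CpG-STAT3ASO against PBS (25%), anti-PD1 against PBS (1%), the combination against CpG-STAT3ASO (0%, with 2 genes at an unadjusted p under 0.05) or the combination against anti-PD1 (28%). Ikzf2 came nearest in the last of these (log2 1.17, SE 0.485, limma adjusted p = 0.0801).

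Position in the tissue was examined next. Bins were classed by molecules of the proliferation genes Mki67 plus Birc5 as low (under 10), intermediate (10 to 99) or dense (at least 100). Dense bins numbered 22 and 78 with the combination, 23 and 33 with CpG-STAT3ASO, 827 and 1090 with anti-PD1, and 714 and 965 with PBS. They were 0.983 to 3.24% of a section's tissue bins with CpG-STAT3ASO and 32.2 to 46.2% without, and they held 0.883 to 11.4% of its Foxp3 molecules with CpG-STAT3ASO and 54.7 to 82.8% without. In the few dense bins of the CpG-STAT3ASO sections Foxp3 had 777 and 932 CPM, the highest of the 3 classes there, and in those of the combination sections 138 and 64.7 CPM, the lowest. With CpG-STAT3ASO, low bins held 36 to 68.9% of the Foxp3 molecules.

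Within the low bins, which every section has in number, none of the 4 genes was called for CpG-STAT3ASO, where 9.18% of 98 genes were. Foxp3 in low bins had 242 and 131 CPM with the combination, 92.9 and 219 CPM with CpG-STAT3ASO, 141 and 77.5 CPM with anti-PD1, and 130 and 345 CPM with PBS (log2 difference 0.10, limma adjusted p = 0.898). The PBS sections held both the highest value and a value in the lower part of the range. Il2ra in low bins had 612 and 319 CPM with the combination, 350 and 690 CPM with CpG-STAT3ASO, 222 and 155 CPM with anti-PD1, and 249 and 374 CPM with PBS. Its difference was the largest of the 4 (0.97, SE 0.416, limma adjusted p = 0.169) and missed the threshold, and PBS section 2 overlapped the sections with CpG-STAT3ASO. Ctla4 differed by 0.42 (adjusted p = 0.606) and Ikzf2 by -0.10 (adjusted p = 0.85) in these bins. For anti-PD1 in low bins, 0% of genes were called and none had an unadjusted p under 0.05.

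**Figure D2:**
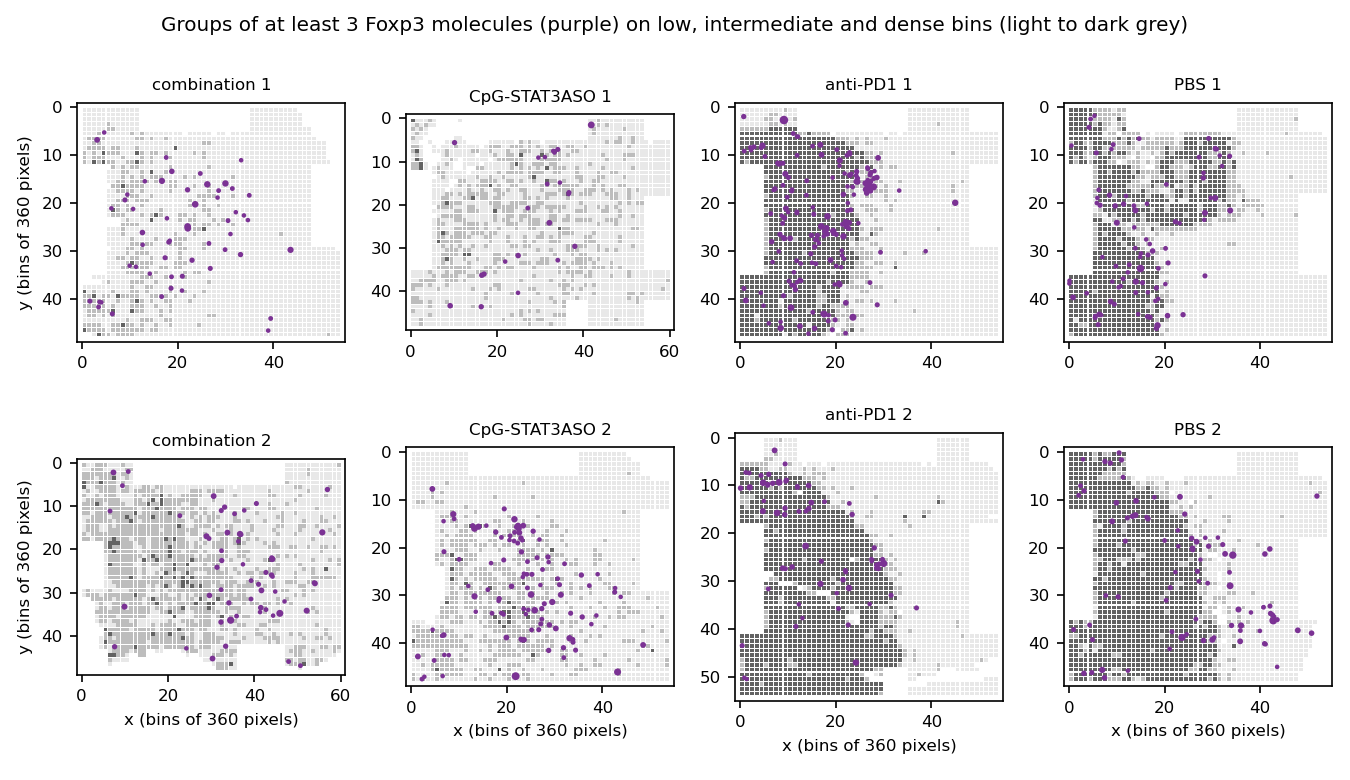
Positions of Foxp3 groups (3 or more Foxp3 molecules linked at 50 pixels) over the bin classes of the 8 sections, with both axes in bins of 360 pixels. Groups lie inside and around the dense tumour of the anti-PD1 and PBS sections, and in the 4 sections with CpG-STAT3ASO mostly over low and intermediate bins, with 1 and 1 groups in dense bins of the combination sections and 4 and 13 in those of CpG-STAT3ASO alone.

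Tumour tissue and the brain around it were compared within the 4 sections without CpG-STAT3ASO. Foxp3 had more molecules per bin in the dense tumour than in low bins in each of them. Per 1000 bins there were 1340 in dense and 102.7 in low bins of anti-PD1 section 1, and 528 in dense and 49.5 in low bins of anti-PD1 section 2. There were 828 in dense and 82.8 in low bins of PBS section 1, and 442 in dense and 264 in low bins of PBS section 2. The density was higher in dense bins in 4 of 4 sections, with the smallest gap in PBS section 2.

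Per bin, all 4 genes rose in dense against low bins, by 4.35 for Il2ra, 2.78 for Foxp3, 2.78 for Ctla4 and 1.46 for Ikzf2 (log2, limma with the section as block, adjusted p from 1.43e-05 for Il2ra to 0.000787 for Ikzf2). By this measure 95.9% of 98 genes were called and 88.8% were called higher (7.14% lower), and the median gene stood at 3.10, so Il2ra lay above it and the other 3 below it. By share of molecules 2 of the 4 were called, where 56.1% of 98 genes were (28.6% higher and 27.6% lower). Il2ra rose by 1.37 (SE 0.424, adjusted p = 0.0323) and Ikzf2 fell by 1.53 (adjusted p = 0.00313) by share, where its per-bin change was the 1.46 above. Foxp3 (-0.19, adjusted p = 0.785) and Ctla4 (-0.20, adjusted p = 0.751) were not called by share.

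The sections did not all run the same way. Il2ra had 1258 CPM in dense and 222 CPM in low bins of anti-PD1 section 1, and 368 CPM in dense and 374 CPM in low bins of PBS section 2. It was higher in dense bins in 3 of 4 sections, and its call was lost without anti-PD1 section 1, without anti-PD1 section 2 or without PBS section 1 (0.99, 1.31 and 1.34, adjusted p from 0.112 to 0.128). Foxp3 had 203 CPM in dense and 141 CPM in low bins of anti-PD1 section 1, and 71.8 CPM in dense and 345 CPM in low bins of PBS section 2. PBS section 2 alone put Foxp3 lower in dense bins, and without it the difference was 0.50 (adjusted p = 0.125). Ikzf2 had lower CPM in dense than in low bins in all 4 sections, for example 1078 CPM in dense and 4575 CPM in low bins of PBS section 2.

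Intermediate bins had the highest Foxp3 level by share of the 3 classes in 5 of 8 sections. In all 8 sections together, 3 of the 4 genes rose in intermediate against low bins, where 66% of 97 genes were called and 50.5% were called higher. Foxp3 had 394 CPM in intermediate and 242 CPM in low bins of combination section 1, 140 and 131 CPM in combination section 2, 186 and 92.9 CPM in CpG-STAT3ASO section 1, and 543 and 219 CPM in CpG-STAT3ASO section 2. It had 744 CPM in intermediate and 141 CPM in low bins of anti-PD1 section 1, 421 and 77.5 CPM in anti-PD1 section 2, 341 and 130 CPM in PBS section 1, and 323 and 345 CPM in PBS section 2. Intermediate bins were thus higher in 7 of 8 sections, with PBS section 2 the exception. The log2 change was 1.15 for Foxp3 (SE 0.303, limma adjusted p = 0.00519), 1.57 for Il2ra (SE 0.296, adjusted p = 0.000702) and 0.77 for Ctla4 (SE 0.238, adjusted p = 0.0125). With class limits of 20 and 200 the calls of Foxp3 (0.67, adjusted p = 0.0703) and Ctla4 (0.54, adjusted p = 0.0589) were lost. Ikzf2 did not differ beyond its spread by share (-0.05, adjusted p = 0.746), and per bin it was higher (0.61, adjusted p = 0.00309, where 89.7% of genes were called and 79.4% higher, 10.3% lower).

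**Figure D3:**
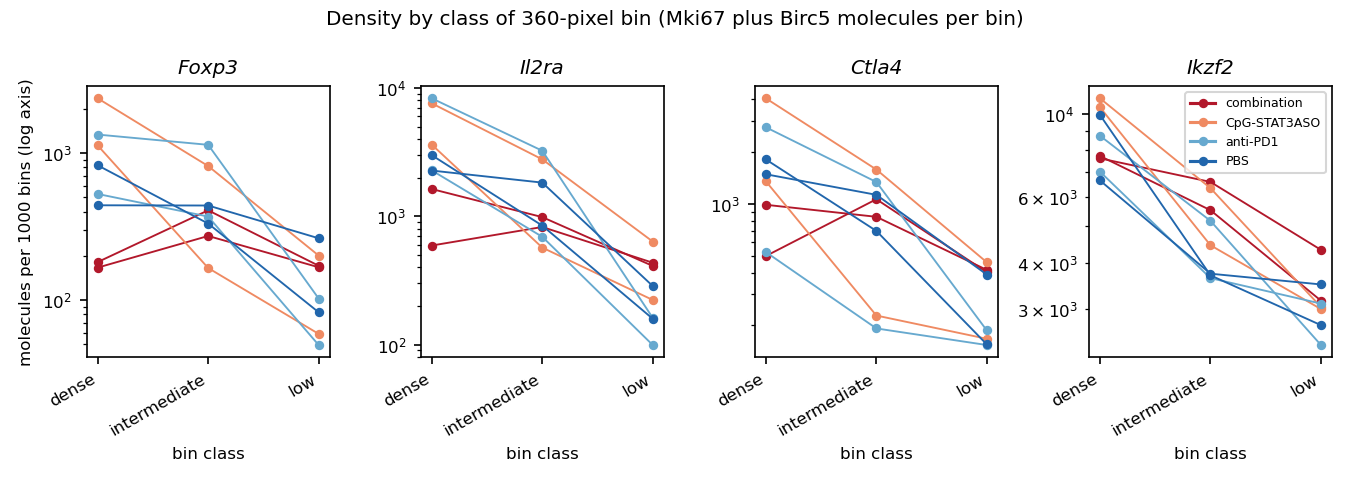
Density of each of the 4 genes in dense, intermediate and low bins, in molecules per 1000 bins on a log axis, with 1 line per section. All 4 genes have fewer molecules per bin in low than in intermediate bins in all 8 sections, and the 2 combination sections have no more Foxp3 in their few dense bins than in intermediate ones.

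Distance from the tumour edge placed the Foxp3 maximum by share just outside it. In the 4 sections without CpG-STAT3ASO, Foxp3 averaged 102 ± 68.8 CPM at 4 or more bins inside the dense edge and 151 ± 65.1 CPM at 1 to 3 bins inside. It averaged 359 ± 159 CPM at 1 to 3 bins outside, 244 ± 217 CPM at 4 to 9 bins outside, and 122 ± 106 CPM farther out (SD, n = 4). Ctla4 followed with 234, 305, 580, 374 and 263 CPM over the same zones, and Il2ra with 585, 713, 1011, 348 and 174 CPM. All 3 thus had their highest mean share in the zone just outside the edge, which was not tested. The T cell genes Cd3d (111 CPM) and Cd8a (850 CPM) also had their highest mean share there, so this position was not particular to the 3 genes. The number of Foxp3 molecules per 1000 bins was instead highest inside, at 681, 803, 378, 190 and 87.1 from the innermost zone outward.

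Whether the 4 transcripts lie in the same places was asked from the molecules themselves. For each anchor gene, molecules of another gene within 100 pixels were counted and divided by the number expected from a ring of 400 to 600 pixels around the same anchors. Within 100 pixels of Foxp3 molecules, Ctla4 was found at 18.6 and 19.6 times the ring density with the combination, 73 and 14.3 times with CpG-STAT3ASO, 5.7 and 13.4 times with anti-PD1, and 10.5 and 14.6 times with PBS. Il2ra was found at 20.6 and 13.3 times with the combination, 76.3 and 12.6 times with CpG-STAT3ASO, 6.05 and 8.79 times with anti-PD1, and 11.4 and 10.3 times with PBS. Ikzf2 was found at 5.55 and 5.56 times with the combination, 7.45 and 5.55 times with CpG-STAT3ASO, 2.72 and 2.62 times with anti-PD1, and 2.7 and 3.99 times with PBS. The local excess was present in all 8 sections for all 3 genes, and anti-PD1 section 1 was lowest for Il2ra and Ctla4.

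Closeness was tested as the log2 of this ratio minus that of the median gene of the same section, which takes off a gathering shared by all genes. The other 3 genes were all close to Foxp3, where 51.5% of 97 genes were called and 26.8% were called closer. Relative to the median gene, Ctla4 stood at 3.27 (SE 0.224), Il2ra at 3.09 (SE 0.207) and Ikzf2 at 1.34 (SE 0.0881), each above the median gene in 8 of 8 sections (limma adjusted p = 1.62e-05 for each). Counting Foxp3's own molecules as a gene (4.11), Ctla4 and Il2ra were the nearest genes of the panel. They were followed by Tnfrsf9 (2.47), which encodes the costimulatory receptor 4-1BB, and Icos (1.99), which encodes another costimulatory receptor of T cells. The pooled false-positive codes stood at -0.48.

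Seen from the other 3 genes the order was much the same, and the lowest section values of Foxp3 were 1.96 around Il2ra and 1.92 around Ctla4. Foxp3 and Ctla4 were the nearest other genes to Il2ra (2.88 and 2.62, where 68% of 100 genes were called and 35% were called closer), followed by Tnfrsf9 and Ifng, the interferon gamma gene. Foxp3 and Il2ra were the nearest other genes to Ctla4 (3.24 and 2.80, where 71.7% of 99 genes were called and 37.4% were called closer), followed by Tnfrsf9 and Cd28. Around Ikzf2 the values were lower, with Foxp3 at 1.55, Il2ra at 1.15 and Ctla4 at 1.12, yet these 3 were the nearest genes of the panel (42% of 100 genes called, 23% closer). Ikzf2 molecules stood lower with each other (0.63) than with those 3 genes.

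**Figure D4:**
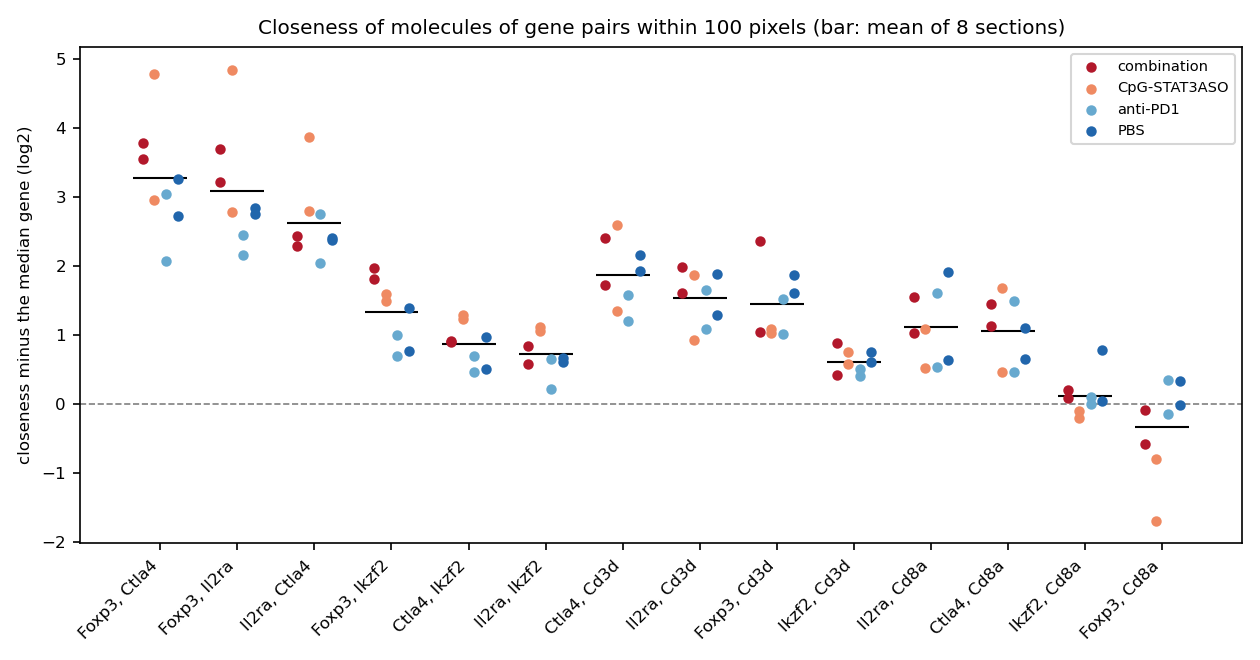
Closeness of molecules among Foxp3, Il2ra, Ctla4 and Ikzf2 and with Cd3d and Cd8a, as log2 of near over ring density minus that of the median gene, with 1 point per section. Around the first-named gene of each pair, the values among Foxp3, Il2ra and Ctla4 lie at or above 2.04 in every section, and Cd8a lies near or below 0 around Foxp3.

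Neighbours were also counted directly. Of Foxp3 molecules, 74.2 ± 5.73% had an Il2ra molecule within 100 pixels, 69.6 ± 8.89% a Ctla4 molecule and 90.7 ± 2.98% an Ikzf2 molecule (mean ± SD over 8 sections). For the median gene of the panel the shares were 22.9% for Il2ra, 16.3% for Ctla4 and 71.4% for Ikzf2. Around false-positive molecules they were 11 ± 5.93%, 10.8 ± 3.12% and 63.4 ± 8.27% in the same order. One code, number 13, made up 53 to 86.6% of these molecules, and the other codes gave 16.1 ± 8.82% for Il2ra, 12.5 ± 4.99% for Ctla4 and 65.5 ± 8.12% for Ikzf2. The relation was uneven for Ikzf2. Only 12.2 ± 5.67% of Ikzf2 molecules had a Foxp3 molecule within 100 pixels, against 8.04% for the median gene and 4.83 ± 2.29% of false-positive molecules, so most Ikzf2 molecules lay away from any Foxp3 molecule.

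Against the 2 T cell genes named with this set, Foxp3 was called close to Cd3d, and its value with Cd8a was not called. Cd3d, part of the T cell receptor complex, stood at 1.44 around Foxp3 (SE 0.226, limma adjusted p = 0.000988), 1.54 around Il2ra, 1.87 around Ctla4 and 0.61 around Ikzf2, above the median gene in 8 of 8 sections for each. In 3 of these sections Cd3d was at the false-positive level, and the part of such molecules was not tested. Cd8a, which marks cytotoxic T cells, stood at 1.11 around Il2ra and 1.05 around Ctla4, above the median gene in 8 of 8 sections for both. Around Foxp3 it stood at -0.33 (SE 0.139, adjusted p = 0.0814), above the median gene in 2 of 8 sections, while set against the ring alone it was 0.40 and called (adjusted p = 0.0218). Around Ikzf2 it stood at 0.11 (adjusted p = 0.221). Around Il2ra, Cd8a was found at 3.97 and 5.74 times the ring density with the combination, 6.22 and 3.02 times with CpG-STAT3ASO, 2.24 and 5.32 times with anti-PD1, and 2.74 and 6.38 times with PBS. Around Foxp3 it was found at 1.06 and 1.34 times with the combination, 0.82 and 1.06 times with CpG-STAT3ASO, 1.23 and 2.06 times with anti-PD1, and 1.57 and 1.91 times with PBS.

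A direct comparison of the surroundings of Foxp3 and Cd8a molecules, added after the first values were seen, put all 3 other genes nearer to Foxp3. Of 95 genes, 25.3% were called and 8.42% were called nearer to Foxp3. Ctla4 stood at 3.27 near Foxp3 and 1.25 near Cd8a (difference 2.03, SE 0.143, limma adjusted p = 6.55e-05), Il2ra at 3.09 and 1.48 (1.61, SE 0.227, adjusted p = 0.00188) and Ikzf2 at 1.34 and 0.05 (1.28, SE 0.0839, adjusted p = 6.55e-05), each higher near Foxp3 in 8 of 8 sections. The others nearer to Foxp3 included Tnfrsf9 (1.91), Icos (1.18), Cd4 (0.54) and the chemokine receptor gene Ccr2 (0.45). The genes nearer to Cd8a were led by those of killing and NK receptors, with Gzma at -3.88, Klrc1 at -3.17, Klrd1 at -2.30, Nkg7 at -2.13 and Prf1 at -1.90. Cd3d was also nearer to Cd8a than to Foxp3 (-1.10, adjusted p = 0.023).

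The 4 genes were set beside lists of related genes. Of the regulatory T cell effector and surface genes, 9 of 23 were on the panel, and 6 of the 9 were closer to Foxp3 than the median gene and none was farther, where 26.8% of all genes were closer and 24.7% farther (list median 0.95, all genes -0.03). Set directly against the surroundings of Cd8a, 2 of the 9 were nearer to Foxp3 and 3 nearer to Cd8a, where 8.42% and 16.8% of all genes were (list median -0.33, all genes -0.05). The 6 closer to Foxp3 than the median gene were Tnfrsf9, Icos, the granzyme gene Gzmb (1.83), Pdcd1 (1.48), which encodes PD-1, Il10 (0.95) and Tgfb1. In the direct comparison the 2 nearer to Foxp3 were Tnfrsf9 and Icos. The 3 nearer to Cd8a were Gzmb (-0.996), Pdcd1 (-0.85) and Lag3 (-0.66), so Gzmb and Pdcd1 were not particular to Foxp3 surroundings. The costimulation list of Ctla4, Cd28, Cd80, Cd86, Icos and Icosl had 5 genes with enough expected pairs, and 4 of them were closer to Foxp3. Those were Ctla4, Icos, Cd28 (1.80), the activating receptor with which CTLA-4 competes, and Cd80 (0.72), a ligand of both. Of the IL-2 receptor pathway only Il2 and Il2ra were on the panel, and Il2, the cytokine itself, stood at 0.20 and was not called. Of 4 chemokine genes, Ccl22 (0.90), a ligand of the regulatory T cell receptor CCR4, and Cxcl9 (0.85) were closer to Foxp3, while Ccl5 (-0.08) and Cxcl10 (0.15) were not called.

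The effector and surface genes were also read around Il2ra and Ctla4. Of the 9, 6 were closer to Il2ra and 8 were closer to Ctla4 than the median gene, where 35% and 37.4% of all genes were, with none farther from either. Around Ctla4 they included Tnfrsf9 (2.09), Icos (1.94), Il10 (1.24), Pdcd1 and Gzmb, and Tox (0.12) was not called. Around Il2ra they included Tnfrsf9 (2.10), Pdcd1 (1.60), Icos (1.56) and Gzmb (1.48), and Il10 (0.61), Lag3 (0.09) and Tox (-0.42) were not called. Ifng stood at 1.78 around Il2ra and 1.92 around Ctla4, and at 0.23 around Foxp3. Around Ikzf2, 4 of the 9 were closer and 2 were farther, where 23% and 19% of all genes were.

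The levels of the related genes over whole sections are set beside those of the 4 genes. By share of molecules, 3 of the 6 costimulation genes rose with CpG-STAT3ASO, where 35% of all genes did, namely Cd80 (log2 2.12), Icosl (1.72) and Cd86 (1.62), which are ligands on antigen-presenting cells (list median 1.21, all genes 0.63). Per tissue bin, where the median of all genes was -0.77, these 3 stood at 0.71, 0.60 and 0.21 and were not called. The receptors Ctla4 (0.76), Icos (0.80) and Cd28 (0.80) were not called by share, and per tissue bin they stood below 0 (-0.65, -0.61 and -0.61), also not called. Of the 9 effector and surface genes by share, 3 rose and 1 fell, near the 35% higher and 8% lower of all genes. Tox (2.17), Lag3 (1.60) and Havcr2 (1.57) rose and Tnfrsf9 fell (-1.34), while Pdcd1 (0.84), Gzmb (-0.59), Tgfb1 (0.28) and Il10 (0.02) were not called. Per tissue bin Tox (0.77), Lag3 (0.18) and Havcr2 (0.15) were not called, while Tnfrsf9 (-2.75, limma adjusted p = 0.0114) and Tgfb1 (-1.14, adjusted p = 0.0207) fell. By that measure 29 of all 100 genes were called lower and 2 higher, so falls were common over the panel. In low bins 0 of the 6 and 0 of the 9 were called by limma, where 9.18% of 98 genes were called. Before adjustment, 26 of the 98 genes had a p under 0.05.

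Markers of other cells were read around Foxp3 in the same way. Of 7 macrophage and microglia genes measured, none was closer to Foxp3 than the median gene and 4 were farther, where 26.8% of all genes were closer and 24.7% farther. Of 5 dendritic cell genes, none was closer and 1 was farther, a share near that of all genes. Of 4 NK cell genes, Nkg7 (0.82) was closer, while Klrd1 (0.31), Klrb1c (-0.24) and Klrc1 (-0.25) were not called. Among the T cell markers, Cd4 stood at 0.26 around Foxp3 (adjusted p = 0.0164), above the median gene in 5 of 8 sections, with values from -0.56 to 0.89. The share of Cd4 itself fell in dense against low bins of the anti-PD1 and PBS sections (log2 change -5.92, limma adjusted p = 2.28e-05).

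CpG-STAT3ASO gave no called difference in closeness. Over 14 pairs, Foxp3 with Ikzf2 differed most clearly, at 1.72 ± 0.214 in the sections with CpG-STAT3ASO and 0.96 ± 0.311 in those without (SD, n = 4 each, difference 0.75). Its exact two-sided permutation p was 0.0286, the smallest p that the 70 assignments of sections can give, with an adjusted p = 0.24. Foxp3 with Il2ra stood at 3.63 ± 0.891 with CpG-STAT3ASO and 2.55 ± 0.312 in the others (exact permutation p = 0.0571, adjusted p = 0.24). Foxp3 with Cd8a stood at -0.79 ± 0.674 with CpG-STAT3ASO and 0.13 ± 0.248 in the others (exact permutation p = 0.0571, adjusted p = 0.24). None of the 14 pairs passed after adjustment. Since 0.0286 is the smallest p possible here, most of the 14 pairs would have to reach it for any to pass. The adjusted test could thus hardly call a pair, and the lack of calls does not show that closeness was unchanged.

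Foxp3 molecules also formed small groups, defined after the data were seen as 3 or more molecules linked by steps of at most 50 pixels. Such a group is a cluster of molecules and was not outlined as a cell. There were 54 and 55 groups with the combination, 22 and 105 with CpG-STAT3ASO, 164 and 64 with anti-PD1, and 84 and 83 with PBS. They held 48.7 to 65.7% of a section's Foxp3 molecules, with a mean of 4.87 to 5.91 molecules per group. The largest group of CpG-STAT3ASO section 2 held 19 Foxp3 molecules with 46 Il2ra, 16 Ctla4, 18 Ikzf2, 21 Cd4, 2 Cd3d and 0 Cd8a molecules within 100 pixels of its centre. The largest group of PBS section 1 held 17 Foxp3 molecules with 13 Il2ra, 10 Ctla4, 8 Ikzf2, 4 Cd4, 1 Cd3d and 4 Cd8a molecules. The largest group of anti-PD1 section 2 held 15 Foxp3 molecules with 15 Il2ra, 1 Ctla4, 4 Ikzf2, 3 Cd3d, 25 Cd8a and 14 Nkg7 molecules. Over the largest groups of all 8 sections there were 5 to 46 Il2ra, 1 to 16 Ctla4, 4 to 21 Ikzf2, 0 to 5 Cd3d and 0 to 25 Cd8a molecules. All 3 other genes were thus present in each, and Cd8a was at most 4 outside anti-PD1 section 2. Ctla4 was fewest in the single largest groups of the anti-PD1 sections (2 and 1). Over all Foxp3 molecules of these sections, 78.3 and 54% had a Ctla4 molecule within 100 pixels, against 60 to 79.1% in the other sections. The low counts were thus not a trait of all Foxp3 molecules in anti-PD1 section 1.

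Over all Foxp3 groups, 92.1 ± 3.95% had Il2ra within 100 pixels, 88.3 ± 4.97% had Ctla4 and 98.2 ± 1.56% had Ikzf2 (mean ± SD over 8 sections). Groups of Cd8a molecules formed in the same way had Il2ra in 48%, Ctla4 in 39.7%, Ikzf2 in 73.5% and Foxp3 in 8.41% of cases. Cd4 was present at 88.5 ± 7.94% of Foxp3 groups and 36.5% of Cd8a groups. Cd3d was present at 25.6 ± 8.6% of Foxp3 groups and Cd8a at 19.4 ± 11%. Cd4 was thus near most Foxp3 groups. By closeness relative to the median gene, a different measure, Cd4 stood at only 0.26 around Foxp3 molecules (limma adjusted p = 0.0164), above the median gene in 5 of 8 sections. Around Ikzf2 molecules as a whole it stood at -0.13 (limma adjusted p = 0.0242).

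Groups of Il2ra and of Ctla4 molecules were formed by the same steps. There were 104 and 156 Il2ra groups with the combination, 70 and 246 with CpG-STAT3ASO, 505 and 226 with anti-PD1, and 220 and 282 with PBS. Of these, 44.8 ± 10.7% had Foxp3 within 100 pixels, 62.2 ± 11.9% had Ctla4 and 32 ± 18.7% had Cd8a (mean ± SD over 8 sections). The largest Il2ra group, in anti-PD1 section 1, held 219 molecules. Of Ctla4 groups, 60 ± 13.9% had Foxp3, 81.8 ± 9.81% had Il2ra and 27.2 ± 17.1% had Cd8a. Il2ra and Ctla4 groups were thus found both with and without Foxp3 beside them.

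**Figure D5:**
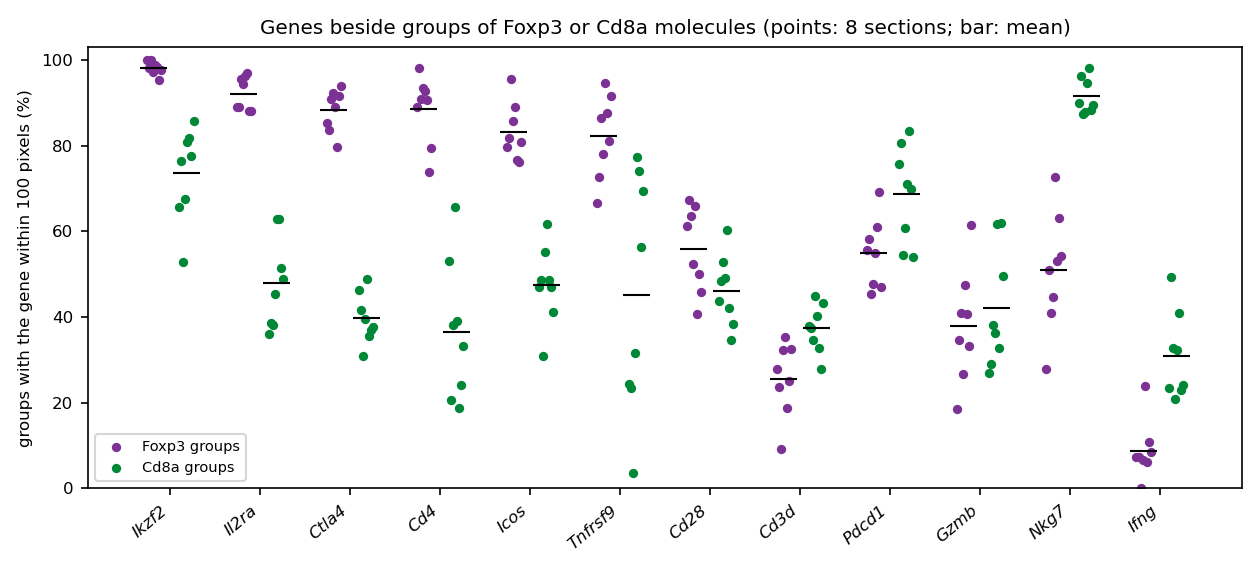
Percentage of Foxp3 groups and of Cd8a groups that have a given gene within 100 pixels of the group's centre, with 1 point per section and a bar at the mean of the 8 sections. Il2ra, Ctla4, Ikzf2 and Cd4 are found at a larger share of Foxp3 groups than of Cd8a groups.

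The number of groups was compared between treatments per area. Per 1000 tissue bins there were 24.8 and 22.9 Foxp3 groups with the combination, 9.4 and 47.7 with CpG-STAT3ASO, 73.7 and 27.1 with anti-PD1, and 37.8 and 38.5 with PBS. The geometric mean was 22.5 with CpG-STAT3ASO and 41.3 without, and the ranges overlapped (exact two-sided permutation p = 0.229, n = 4 each). In low bins alone it was 13.1 with CpG-STAT3ASO and 6.49 in the other sections (exact permutation p = 0.314). Neither difference exceeded the spread between sections, and the 2 had opposite signs.

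The balance of Foxp3 to Cd8a molecules is often used to describe a tumour's T cells. For each 100 Cd8a molecules there were 25.8 and 2.84 Foxp3 molecules with the combination, 20 and 33.2 with CpG-STAT3ASO, 36.7 and 21.4 with anti-PD1, and 37.3 and 50.2 with PBS. Combination section 2 stood far below the other 7, with 18335 Cd8a molecules where the others had 1148 to 4032. With and without CpG-STAT3ASO the ratio did not differ beyond the spread (log2 difference -1.23, exact two-sided permutation p = 0.143, n = 4 each). Without combination section 2 the difference was -0.43.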

How the data were processed

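Resolve single-molecule fluorescence in situ hybridization gave, per the labels, 1 table per section. Each deposited table lists molecules with x, y and z and a target name. Neither the size of a pixel nor the way spots were called is given in the labels or headers. Seurat 4.2.0 appears in the submitters' processing notes, which give it no role. Targets named FP (28 codes) were read as false positives and kept apart from the genes.

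Molecules were tallied per section and per tissue bin (360 pixels, at least 20 molecules). log2(CPM + 1) was fitted with limma 3.58.1 in R 4.3.3 (lmFit, eBayes with trend, 4 group means, the section as block for bin classes), over genes averaging at least 10 molecules a section, with Benjamini-Hochberg adjustment over all genes tested, threshold 0.05, two-sided. Closeness added 0.5 to observed and expected pairs and kept genes with at least 5 expected. Single values per section were tested by exact permutation over all assignments of the sections. Neighbours and groups of molecules were found with scipy 1.17.1. On simulated sections with known changes, the fit of the CpG-STAT3ASO effect recovered 11, 78.5 and 95.2% of 2-, 4- and 8-fold changes over 100 genes.

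The members, bin limits and gene lists were chosen with earlier results of these data known. Named are the 4 genes, Cd3d, Cd8a and Cd4, list genes (up to 6 of a list, and those called) and the 5 genes nearest to each member. The other genes of the comparison of Foxp3 with Cd8a surroundings were chosen after their values were seen. The replicate numbers gave no consistent pairing of the sections. Correlations between treatments were negative for anti-PD1 with each other treatment (-0.525 to -0.311) and positive among the others (0.253 to 0.589). Whether sections shared a batch was not tested. Alternatives were other scalings, limits, radii and bins, and leaving out each section.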

Additional observations from a re-analysis of the deposited data

Results flagged for a closer look

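One false-positive code, number 13, had 3316 to 5348 molecules per section, more than Foxp3 in all 8 sections and more than Ctla4 in all 8. It was picked out as signal outside the measured genes, and it made up 53 to 86.6% of the false-positive molecules used above. Of its molecules, 16.6 to 27.3% lay in groups of 3 or more linked at 50 pixels, against 48.7 to 65.7% for Foxp3.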

How the results depend on the processing

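The closeness of Foxp3, Il2ra, Ctla4 and Ikzf2 to each other and to Cd3d kept its sign and its call under every radius, ring and left-out section tried. Scaling mattered most for treatment. For CpG-STAT3ASO over whole sections, molecules per tissue bin gave -0.65 for Ctla4, -0.96 for Foxp3, -0.30 for Ikzf2 and -1.32 for Il2ra, and median-of-ratios size factors gave -0.23 for Foxp3, 0.43 for Ikzf2 and -0.59 for Il2ra, with 0 of the 4 called by limma under both. Of all genes, 35 were called higher and 8 lower by share, 2 and 29 per tissue bin, and 18 and 16 by size factors. In low bins 9 genes were called by share, 16 per bin, 3 by size factors and 6 with a low limit of 5, and none of these counts held a member. There, size factors gave -0.016 for Ctla4 and -0.33 for Foxp3, a low limit of 20 gave -0.0071 for Foxp3, and the per-bin value of Ikzf2 was 0.20. For dense against low bins, the per-bin values were 2.78 for Ctla4, 2.78 for Foxp3 and 1.46 for Ikzf2, limits of 5 and 50 gave 0.055 for Foxp3, and limits of 20 and 200 gave 0.96 for Il2ra, no longer called. For intermediate against low bins, limits of 20 and 200 gave 0.54 for Ctla4 and 0.67 for Foxp3, neither called, and Ikzf2 stood at 0.071 with bins of 720 pixels, 0.12 with limits of 5 and 50, and 0.61 per bin. Closeness of Foxp3 and Cd8a was 0.40 when not set against the median gene and -0.67 within 50 pixels, both called, Ikzf2 and Cd8a was 0.63 (called) and, in low bins, -0.21, and Ctla4 and Cd8a in low bins was 0.87, no longer called. CpG-STAT3ASO differences in closeness turned for Foxp3 and Cd3d (0.13 not set against the median gene, 0.0082 at 200 pixels), Ikzf2 and Cd3d (-0.11 at 50 pixels), Il2ra and Cd3d (-0.021 at 50 pixels), Ikzf2 and Cd8a (0.029 not set against the median gene) and Il2ra and Cd8a (0.26 not set against the median gene, 0.13 with a ring of 200 to 400 pixels). The causes of these changes were not tested. With each section left out in turn, the whole-section CpG-STAT3ASO value ran from 0.89 to 1.32 for Ikzf2 and from -0.27 to 0.46 for Il2ra, with 0 to 1 of the 4 called. In low bins Foxp3 ran from -0.25 to 0.45 and Ikzf2 from -0.24 to 0.036. For dense against low bins Foxp3 ran from -0.43 to 0.50, Ctla4 from -0.52 to 0.13 and Il2ra from 0.99 to 1.83, and for intermediate against low bins Ikzf2 ran from -0.11 to 0.044. Closeness to Cd8a ran from -0.44 to -0.22 for Foxp3, called without CpG-STAT3ASO section 2, and from 0.019 to 0.20 for Ikzf2, called without PBS section 1. The CpG-STAT3ASO difference in closeness ran from -0.012 to 0.34 for Il2ra and Cd3d and from -0.34 to 0.12 for Il2ra and Cd8a. With the replicate number as a block, 1 of the 4 genes, Ikzf2, was called with the combination against anti-PD1, and no other count of the 4 changed. With 2 sections per treatment, no molecule-level outline of cells and Foxp3 at 230 to 1481 molecules, changes near 2-fold were mostly beyond detection.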
